A study of Homo sapiens with 6 samples.

Results

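The immunoglobulin loci and their flanks were examined as the merged open chromatin regions in 3 intervals of hg38, chr14:105000000-107043718 for the heavy-chain locus (IGH), chr2:88300000-90800000 for the kappa light-chain locus (IGK) and chr22:21500000-23450000 for the lambda light-chain locus (IGL). Peaks of 6 lists were merged where they overlapped by 1 bp or more, and every merged region in an interval was kept whatever the number of libraries that called it. This gave 343 of 89196 regions, 119 in IGH, 73 in IGK and 151 in IGL. The lists came from Omni-ATAC, in which a transposase cuts accessible DNA so that fragments accumulate at open sites, in MM.1S, an established line of multiple myeloma. CB-6644, an inhibitor of the RUVBL1/2 ATPases that chromatin remodeling complexes share, was given at 120 nM for 72 h to 3 samples, and 3 others received the DMSO vehicle. Live cells were sorted before the assay, all 6 libraries came from this 1 line, and whether replicates were separate cultures is not given in the sources used here, so that every p-value measures only the spread between these libraries.

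A myeloma cell corresponds to a plasma cell, which makes large amounts of a single antibody. Each immunoglobulin locus carries many variable (V) segments, short diversity (D, heavy chain only) and joining (J) segments and constant (C) genes, and V(D)J recombination joins single segments and deletes or inverts the DNA between them. V promoters carry an octamer bound by POU2F1 and POU2F2, enhancers lie in the introns between J and C segments and downstream of the constant genes, class switching uses repetitive switch regions upstream of the heavy-chain constant genes, and CTCF sites help to fold the V arrays. At a missing peak, closed chromatin, DNA deleted by recombination and sequence to which reads could not be assigned therefore cannot be told apart. Segments and constant genes of a locus are also near-copies of each other, and the 2 regions downstream of IGHA1 and IGHA2 are duplicates, so that values at such copies are uncertain where reads were shared or dropped.

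The sequences of 9 windows that carry the findings are printed here on the + strand of hg38, each the 151 bp centered on the strongest summit. Capitals mark matches on either strand to 9 consensus sequences: the octamer ATGCAAAT, the E-box CAGGTG, an IRF element GAAANNGAA, the ETS-IRF element (EICE) GGAANNGAA, an ATF4-CEBP element TGATGNAA, a MAF element TGCTGAC, the recombination signal (RSS) heptamer CACAGTG, and the NF-kB and CTCF consensus sequences. An octamer can overlap an ATF4-CEBP match, and an E-box can lie inside a CTCF match. IRF and EICE cannot match at the same position. The first 2 windows are the strongest downstream of the lambda and heavy-chain constant genes (chr22:22928753-22928903 and chr14:105582010-105582160), and the third is the strongest between IGHJ6 and IGHM (chr14:105858345-105858495). It held 18 copies of the switch pentamers AGCTC or AGCCC, which read GAGCT or GGGCT on the strand of the gene.
downstream of IGLC7: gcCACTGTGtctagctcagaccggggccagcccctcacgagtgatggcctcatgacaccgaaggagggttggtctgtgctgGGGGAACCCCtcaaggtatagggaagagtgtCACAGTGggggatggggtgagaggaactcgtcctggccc
downstream of IGHA2: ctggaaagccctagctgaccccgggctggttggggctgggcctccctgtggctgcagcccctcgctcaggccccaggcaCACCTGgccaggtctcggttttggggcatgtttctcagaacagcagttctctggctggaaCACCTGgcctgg
IGHJ6 to IGHM: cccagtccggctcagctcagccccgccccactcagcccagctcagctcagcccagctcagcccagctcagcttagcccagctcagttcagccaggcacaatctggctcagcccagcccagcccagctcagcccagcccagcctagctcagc
The next 3 windows show where summits lay on V segments: an octamer upstream of IGLV4-60 (chr22:22161980-22162130), an octamer joined to an ATF4-CEBP match at the start of IGLV3-9 (chr22:22818935-22819085), and a CTCF match beside the RSS heptamer past the 3′ end of IGHV4-34 (chr14:106373532-106373682).
IGLV4-60: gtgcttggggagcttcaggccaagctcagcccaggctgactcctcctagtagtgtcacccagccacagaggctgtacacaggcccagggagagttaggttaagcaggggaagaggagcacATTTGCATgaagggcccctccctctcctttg
IGLV3-9: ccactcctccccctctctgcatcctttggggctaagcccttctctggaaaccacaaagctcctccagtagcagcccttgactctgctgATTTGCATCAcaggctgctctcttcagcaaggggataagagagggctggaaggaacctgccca
IGHV4-34: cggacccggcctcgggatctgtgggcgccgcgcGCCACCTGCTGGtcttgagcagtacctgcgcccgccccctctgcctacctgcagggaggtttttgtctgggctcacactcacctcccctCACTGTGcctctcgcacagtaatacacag
The last 3 windows contrast a lambda V segment opened at its recombination signal, a lambda V segment with a CTCF match at its summit, and the region with the largest difference of summit pile-up between the groups, in the lncRNA gene PRAMENP (chr22:22410207-22410357, chr22:22195470-22195620 and chr22:22025521-22025671).
IGLV1-40: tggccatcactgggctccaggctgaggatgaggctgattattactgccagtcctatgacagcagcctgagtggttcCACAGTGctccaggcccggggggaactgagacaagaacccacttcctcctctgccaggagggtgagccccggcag
IGLV6-57: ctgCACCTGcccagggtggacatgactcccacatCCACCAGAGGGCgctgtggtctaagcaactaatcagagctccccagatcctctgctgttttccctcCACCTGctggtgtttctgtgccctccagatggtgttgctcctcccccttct
PRAMENP: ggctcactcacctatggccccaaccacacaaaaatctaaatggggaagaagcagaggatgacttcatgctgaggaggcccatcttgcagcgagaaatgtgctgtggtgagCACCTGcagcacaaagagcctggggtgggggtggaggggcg

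The lists held 58563 to 71781 peaks after CB-6644 and 65569 to 79020 after DMSO. They give no read totals, so the pile-up of fragments at each summit and the local background around it were solved from the caller's fold enrichment and p-value. Every list fitted this model within 0.1% at 100% of its peaks. Since 2 values were solved from 2, only the condition of a whole-number pile-up could fail, and it constrains little at high pile-ups. The genome-wide background stood in for depth and ran from 3.20 to 7.05 tags per kb after CB-6644 and from 6.404 to 9.08 after DMSO. CB-6644 replicate 2 and DMSO replicate 1 had the shortest peaks (65 and 91 bp, against 131 to 152 bp in the other 4 libraries), and CB-6644 replicate 2 also had the lowest background. Fragment lengths are not given in the lists, and the shortest peak of each list stood in for them. CB-6644 replicate 2 and DMSO replicate 1 form the short fragment class, and the other 4 are the long-fragment libraries. All 8 plasma cell markers examined had a promoter peak in all 6 libraries. Among markers of other cells, CD8A, CD14, EPCAM, COL1A1 and PAX5 did too, while CD3E, CD3D, LYZ, CSF1R and MS4A1 had none in any library.

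Open regions were densest in the lambda locus. The IGL gene cluster, from IGLVI-70 to IGLC7, held 91 regions or 10.1 per 100 kb, against 5.86 in the IGH cluster (76 regions), 3.02 in the IGK cluster (44 regions) and 2.89 over the genome. The order was the same for regions called in all 6 libraries, at 4.91 per 100 kb in IGL, 1.85 in IGH and 0.548 in IGK, where the genome had 1.36. Lengths here include unassigned bases of hg38. The IGK cluster holds long stretches of them, so its densities are low estimates. Over the intervals, 83 of 151 IGL regions (54.97%), 47 of 119 IGH regions (39.5%) and 22 of 73 IGK regions (30.1%) were called in all 6 libraries, beside 47.2% of all regions. Of the 343 regions 12.2% lay within 1000 bp of a protein-coding start site, against 18.8% of all regions. Starts of immunoglobulin segments were not counted as protein-coding, which holds this share down inside the clusters. It was 0% in the IGH and IGK clusters and 3.3% in the IGL cluster. The flanks stood at 41.9% in IGH, 13.8% in IGK and 28.3% in IGL. Recovered local background, divided by the lowest in the same list, had a median over the regions in all 6 libraries of 4.16 to 4.60 in IGL, 2.396 to 3.59 in IGH and 1.43 to 2.55 in IGK across libraries, where all such regions of the genome gave 3.26 to 3.55. The 6 libraries of IGL lay above the genome's range and those of IGK below it, and the IGH range overlapped it.

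**Figure D1:**
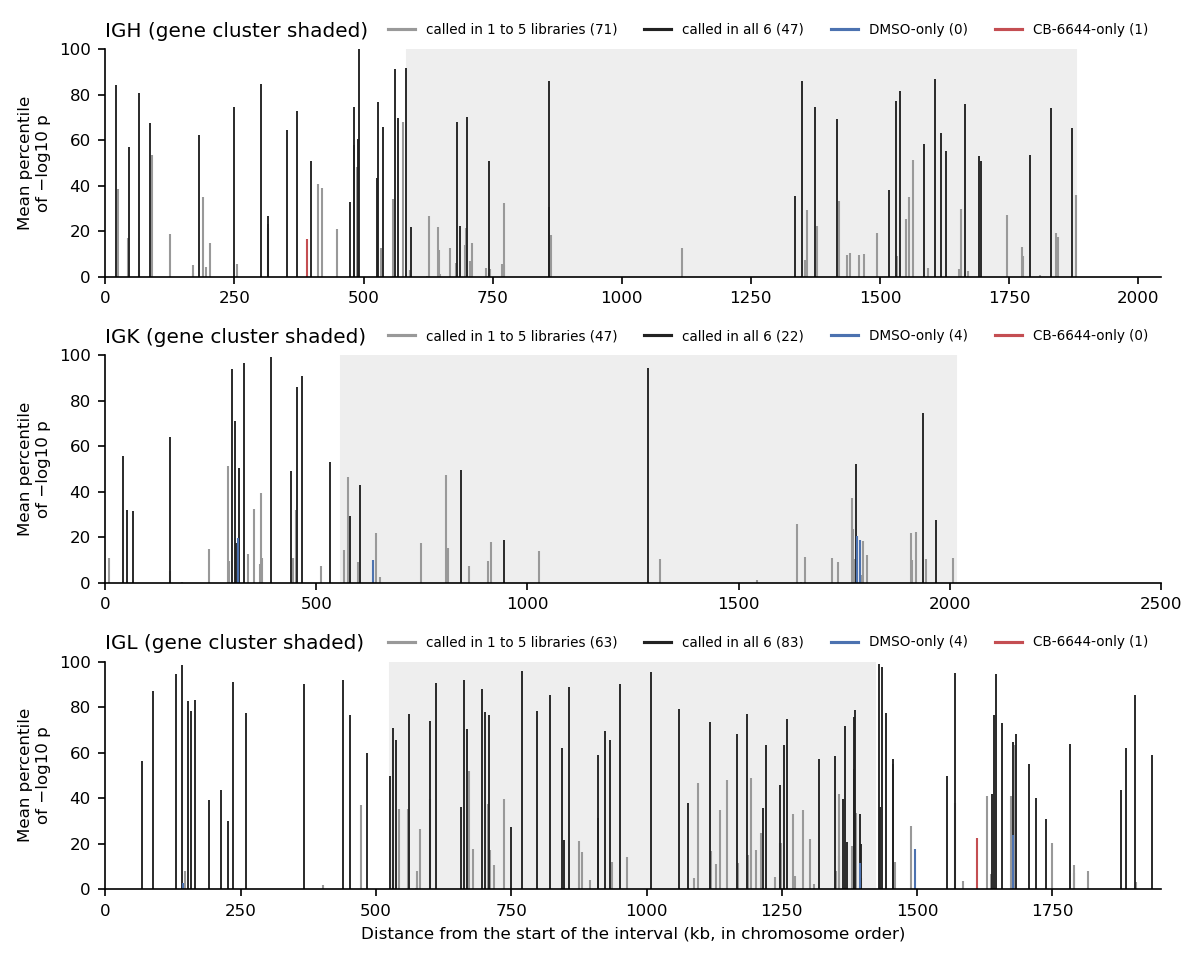
Merged regions of IGH, IGK and IGL by distance from the start of each interval (x axis, kb) against the mean percentile of −log10 p within each library's own list, over the libraries that called them (y axis), with the gene cluster shaded and colors for the libraries that called a region. The IGL cluster is filled throughout by regions called in all 6 libraries (black), while the IGH cluster has a stretch of 475 kb and IGK long stretches without one. Those of IGK consist in part of unassigned bases.

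Constant and joining genes were mostly without a peak of their own. Of 9 heavy-chain constant genes, 4 overlapped a region in any library and only IGHG1, the constant gene of IgG1, overlapped one called in all 6. IGKC, the kappa constant gene, overlapped none, and of the 4 functional lambda constant genes only IGLC1 overlapped a region, which the 3 DMSO libraries called at percentiles of 11.6, 10.2 and 12.2 and no CB-6644 library called. A percentile here is the share of a library's own peaks with a lower −log10 p, so the IGLC1 peaks were weak. IGLJ1 was the only J segment with a region in all 6 libraries, and none of the 27 D segments had a region in any library. The longest stretch of the IGH cluster without a region in any library ran for 254 kb from IGHJ6 to IGHV5-10-1 over 50 segments, and the next for 218 kb from IGHV3-11 to IGHV3-32 over 29 segments. Both stretches have 0% unassigned bases in hg38. In IGK the 2 longest stretches, of 259 and 229 kb, consist to 77.4% and 29.7% of unassigned bases.

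Regions downstream of the constant genes were among the strongest. The region at chr22:22928499-22929178, with its summit 5.79 kb past the 3′ end of IGLC7, stood at percentiles of 99.3, 98.7 and 99.2 after CB-6644 and 99.0, 99.3 and 99.2 after DMSO in replicates 1 to 3. A second one at chr22:22935401-22936169, 12.8 kb past IGLC7, had a mean percentile of 97.5. All 4 regions within 30 kb downstream of IGLC7 were called in all 6 libraries. The window of the strongest one, printed above, held an NF-kB match and RSS heptamers.

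The heavy-chain counterparts were strong downstream of IGHA2 and weaker downstream of IGHA1. Within 30 kb, 5 regions lay downstream of IGHA2 and 7 downstream of IGHA1, and 3 of each were called in all 6 libraries. The region at chr14:105581585-105582597, with its summit 1.65 kb past IGHA2, had percentiles of 96.0, 69.8 and 92.3 after CB-6644 and 95.2, 97.4 and 98.9 after DMSO. CB-6644 replicate 2, the library with the shortest peaks and the lowest background, stood lowest there and at each of the other 5 regions called in all 6 libraries downstream of the IGHA genes. The part of fragment length and depth in these values was not tested. The strongest region downstream of IGHA1, chr14:105700724-105701352, reached a mean percentile of 70.3. Of the 12 regions together 7 (58.3%) had an E-box within 100 bp of the summit, 4 (33.3%) an NF-kB match and 0 a CTCF match, and their median GC content was 68.7%, against 54.7% over all regions called in all 6 libraries.

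The intervals between J and C segments differed in their calls between the heavy and the kappa chain. Between IGHJ6 and IGHM, 3 regions were called and 2 of them in all 6 libraries. The strongest, chr14:105858019-105858587, had percentiles of 89.5, 85.3 and 85.4 after CB-6644 and 90.0, 81.0 and 83.6 after DMSO, on a local background of 15.3 to 17.9 times the lowest of each list. It lay on the switch pentamer repeats printed above and overlapped the annotated MIR4507 and MIR4538. The other, chr14:105858664-105860252, had a mean normalized log2 fold enrichment of 2.44 after CB-6644 and 2.21 after DMSO. Whether either region is the intronic enhancer was not tested. No region was called between IGKJ5 and IGKC, and the only one within 30 kb downstream of IGKC, at chr2:88831798-88832092, had a mean percentile of 53.3.

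Overlap of functional V genes with regions called in all 6 libraries was most frequent in the lambda locus. There 12 of 37 functional V genes and 2 of 36 V pseudogenes overlapped such a region, against 5 of 49 and 6 of 78 in IGH and 1 of 44 (IGKV3-20) and 0 of 33 in IGK. The summits fell at opposite ends of the segments in the 2 chains. In IGL, 10 of 14 summits lay at or upstream of the annotated start, by a median over all 14 of 130 bp and at most 312 bp. In IGH none of 11 did, and 10 of the 11 lay past the annotated 3′ end, where the RSS is, by a median of 97 bp over all 11. IGKV3-20 had its summit 79 bp upstream of the start.

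The letters around those summits differed as well. A CTCF match lay within 100 bp of the summit at 7 of 11 IGH V regions (63.6%, Wilson 95% interval 35.4 to 84.8%) and at 2 of 14 IGL V regions (14.3%), where 4.94% of all 42089 regions called in all 6 libraries had one. These intervals cover counting error only. An octamer was within 100 bp at 4 of 14 IGL V regions (28.6%) and at 0 of 11 IGH V regions, beside 1.93% of all. The E-box was found at 10 of 11 IGH V regions (90.9%) and 8 of 14 IGL V regions (57.1%), beside 29.1% of all, and the counts of both stayed the same when E-boxes inside CTCF matches were not counted. V segments of 1 family share much of their sequence, so their matches are not independent.

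Octamers upstream of the V segments were then read whatever the peaks. Within 200 bp upstream of the start, 12 of the 14 IGL V segments with a region in all 6 libraries had an octamer (85.7%), against 23 of the other 59 (39.0%). In IGH the counts were 6 of 11 (54.5%) and 54 of 116 (46.6%). Many of the other V segments are pseudogenes.

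**Figure D2:**
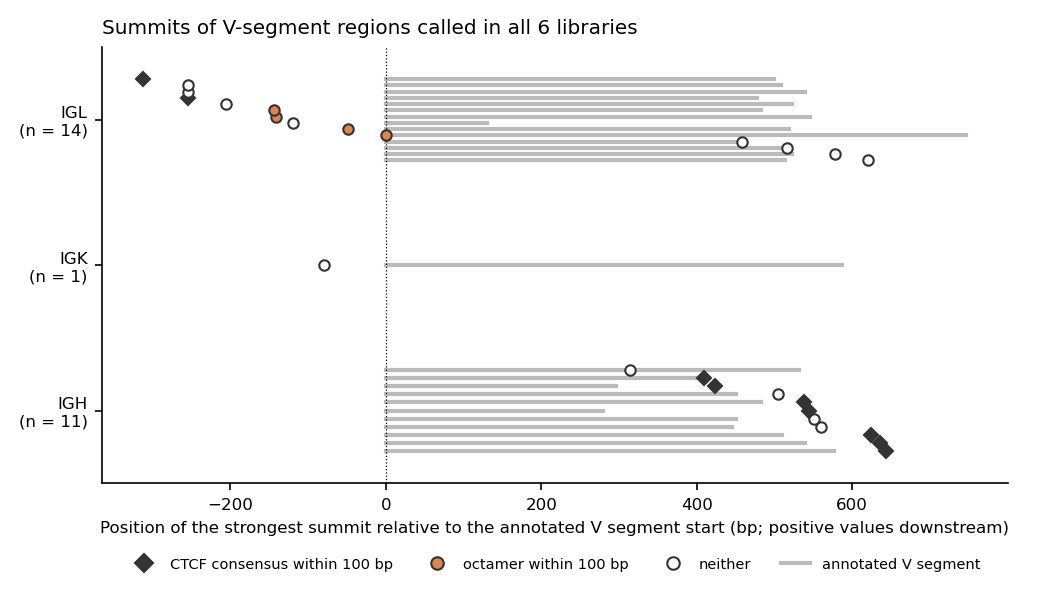
Position of the strongest summit of each V segment region called in all 6 libraries relative to the annotated segment start (x axis, bp), with 1 line per segment for IGL (14), IGK (1) and IGH (11). Summits of IGL lie mostly left of the start, some beside an octamer, and 10 of 11 IGH summits lie past the 3′ end, 7 of the 11 within 100 bp of a CTCF match.

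Across all 152 regions of the 3 loci called in all 6 libraries, CTCF matches stood at 14.5% against 4.94% of all such regions, E-boxes at 46.1% against 29.1%, octamers at 4.61% against 1.93% and RSS heptamers at 8.55% against 5.97%. IRF elements stood lower, at 5.26% against 11.2%, and EICE, MAF and NF-kB matches at 5.26%, 3.29% and 5.92% against 7.43%, 5.42% and 7.58%. The loci differed, with IRF elements at 6.38% in IGH, 13.6% in IGK and 2.41% in IGL. CTCF matches stood at 25.5% in IGH, 9.09% in IGK and 9.64% in IGL. ATF4-CEBP elements stood at 3.29% against 2.53%, but lower within 50 bp, at 0.658% against 1.18%. The member regions had a median GC content of 61.2%, against 54.7%, and the part of base composition in these shares was not tested. A match describes letters and no binding, and a window without a match says nothing of the factor.

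**Figure D3:**
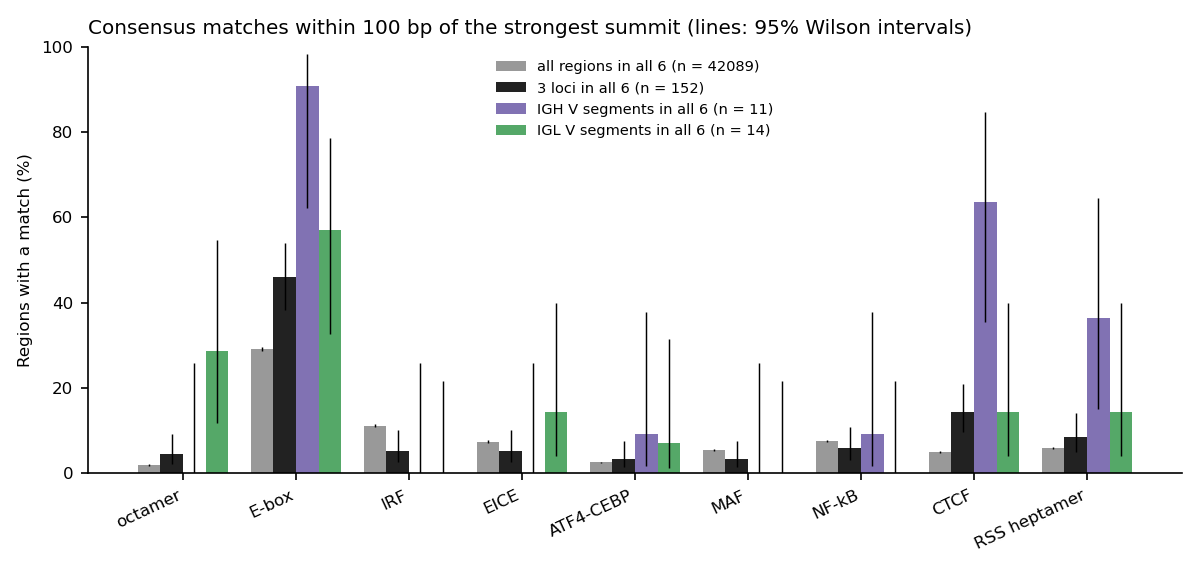
Share of regions with a consensus match within 100 bp of the strongest summit (y axis, %) for 9 motifs, in all regions called in all 6 libraries, the 152 of the 3 loci, and the IGH and IGL V segment regions, with lines for 95% Wilson intervals. CTCF (63.6%) and E-box (90.9%) bars are tallest for IGH V segments and the octamer bar (28.6%) for IGL V segments.

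The flanks held ordinary promoters, some of them among the strongest members. Of 39 protein-coding genes in the intervals 26 had a promoter region in all 6 libraries and 8 had none, among them VPREB1, which encodes a surrogate light chain of precursor B cells, and CLBA1, whose start lies outside the interval. The strongest member was the promoter of TEDC1, a centriole protein gene next to IGH, at percentiles of 99.6 to 99.9. It was followed by the shared promoter of EIF2AK3, the endoplasmic reticulum stress kinase PERK, and RPIA of the pentose phosphate pathway next to IGK, at 98.5 to 99.7. SDF2L1, an endoplasmic reticulum chaperone cofactor, led the promoters in the flank of IGL at 98.1 to 99.1. CRIP1 was called in all 3 DMSO libraries (55.4, 49.8 and 39.7) but only in replicate 2 of CB-6644 (48.1), and IGLL5, a lambda-like gene inside the cluster, in 2 CB-6644 libraries (14.1 and 19.0) and all 3 DMSO libraries (52.4, 37.9 and 44.3). The strongest promoter region of BCR leaned the other way, called in 3 CB-6644 and 2 DMSO libraries at a mean percentile of 63.5.

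Whether CB-6644 changed these loci was first read from the calls. IGK had 42, 42 and 41 peaks after CB-6644 and 54, 53 and 49 after DMSO, with no overlap of the groups. IGH had 75, 86 and 79 against 111, 91 and 80, and IGL 113, 145 and 123 against 147, 133 and 112, with overlapping groups. As a share of each list IGL went the other way, with 0.190 to 0.210% of the peaks after CB-6644 and 0.171 to 0.187% after DMSO, while the IGK and IGH shares overlapped. With the same number of strongest peaks taken from each list, CB-6644 libraries had on average 4.67 more peaks in IGH, 0.333 more in IGK and 10.3 more in IGL, so the direction of the counts depended on the length of the lists. More DMSO than CB-6644 libraries called 110 of the 343 regions, against 32.5% of all regions. By locus these were 42 of 119 in IGH, 33 of 73 in IGK and 35 of 151 in IGL. More CB-6644 than DMSO libraries called 44, against 12.8% of all regions, with 13 in IGH, 9 in IGK and 22 in IGL.

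Regions called in every library of 1 group and none of the other were few. There were 8 DMSO-only regions, 4 in IGK and 4 in IGL, against 4.5% of all regions, and 2 CB-6644-only regions, 1 in IGH and 1 in IGL, against 0.586%. The DMSO-only regions were weak, from 3 DMSO percentiles of 0.249, 4.76 and 3.31 beside SDF2L1 to 11.8, 29.1 and 30.03 at chr22:23176293-23176596. An intron of EIF2AK3 held another, chr2:88614511-88614706, at 8.43, 23.8 and 26.5. The CB-6644-only regions were chr14:105390374-105390556 in PACS2, a membrane traffic gene, at 5.87, 10.6 and 33.6, and chr22:23110677-23110864 in RSPH14 and GNAZ at 24.9, 24.5 and 17.6. With the same number of strongest peaks from each list 0 DMSO-only regions were left in IGK and IGL and 4 CB-6644-only regions were found in IGL.

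Strength was compared at the 152 regions called in all 6 libraries, in a limma fit on quantile-normalized log2 fold enrichment over all 42089 such regions. No member passed an adjusted p of 0.05 in either direction, where 0.321% of all regions passed as higher and 0.418% as lower after CB-6644. At an unadjusted p under 0.05 there were 3 of 47 regions in IGH, 2 of 22 in IGK and 13 of 83 in IGL, against 14.4% of all regions. Median log2 differences were -0.06 in IGH, -0.06 in IGK and 0.07 in IGL, where all regions gave 0.02. The groups did not overlap at 1 higher and 4 lower regions in IGH, 1 and 3 in IGK and 11 and 9 in IGL, beside 10.7% of all regions in each direction. Closest to the threshold was chr22:23205751-23206036 in an intron of BCR, the partner of ABL1 in chronic myeloid leukemia, at a log2 difference of -0.67 and an adjusted p of 0.054 in limma. The median-centered fit also called 0 members, and 0% of all regions.

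Fold enrichment divides the summit by a local background that the caller takes from the same reads. The fit was therefore also made on the recovered summit pile-up as an alternative. It called 13 members by limma, 7 higher and 4 lower in IGL, 1 lower in IGH and 1 lower in IGK, where 4.7% of all regions were called higher and 5.4% lower. At an unadjusted p under 0.05 there were 5 regions in IGH, 3 in IGK and 21 in IGL, against 23.7% of all. The groups did not overlap at 15 higher and 10 lower regions in IGL, 1 and 5 in IGH and 0 and 4 in IGK, beside 14.1% and 14.4% of all regions. Median log2 differences of the pile-up were -0.02 in IGH, -0.06 in IGK and 0.07 in IGL, where all regions gave 0.01. The regions named from here on as called were picked after their values in this fit were seen, and each was tested again with every library left out in turn.

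Of the 7 IGL regions called higher, 6 lay in or at the edge of the upstream part of the V array and 1 lay in BCR. In PRAMENP, chr22:22025474-22025953 had normalized pile-ups of 57.2, 57.2 and 71.3 after CB-6644 and 25.04, 24.7 and 25.7 after DMSO. All CB-6644 libraries stood above all DMSO libraries, by a ratio of geometric means of 2.45 and a log2 difference of 1.29 ± 0.19 (SE, n = 3 per group, limma adjusted p = 0.0032), and 6 of 6 leave-one-out fits called it. Its local background moved alike, at 3.16, 3.12 and 3.18 times the lowest of each list after CB-6644 against 1.45, 1.41 and 1.40. The log2 difference of fold enrichment was 0.50 with a limma adjusted p of 0.19, and the part of the background was not tested.

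IGLV4-60, a functional lambda V gene, had pile-ups of 237, 290 and 229 after CB-6644 and 154, 124 and 123 after DMSO at chr22:22161918-22162292, with its summit 144 bp upstream of the gene. The groups did not overlap, with a ratio of 1.89 and a log2 difference of 0.92 ± 0.14 (SE, n = 3 per group, limma adjusted p = 0.004) that 6 of 6 leave-one-out fits called. The octamer printed above lay between this summit and the gene. Background rose with it, from 5.49, 4.51 and 4.25 after DMSO to 8.15, 10.2 and 8.03, and fold enrichment differed by 0.19 (limma adjusted p = 0.31).

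At the pseudogene ENSG00000227710, chr22:22167874-22168768, the pile-ups were 124, 133 and 112 after CB-6644 and 68.7, 63.1 and 63.1 after DMSO. These did not overlap either, by a log2 difference of 0.92 ± 0.15 (SE, n = 3 per group, limma adjusted p = 0.005, 6 of 6 leave-one-out fits). The 3 regions kept by every such fit lay within 143 kb. Another region in PRAMENP, chr22:22037283-22037594, at 85.3, 78.9 and 91.8 against 45.9, 42.1 and 45.9, was called by 5 of 6. The region at chr22:22422782-22423068 was called by 4 of 6, at 74.9, 111 and 76.9 against 43.3, 47.0 and 43.6.

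IGLV1-40 had its region at the 3′ end, where the printed window holds the RSS heptamer. The pile-ups were 43.3, 33.6 and 38.0 against 25.7, 17.4 and 15.9, a log2 difference of 0.99 ± 0.24 (SE, n = 3 per group, limma adjusted p = 0.028) without overlap, but 2 of 6 leave-one-out fits called it. Fold enrichment differed by 0.75, also without overlap (limma adjusted p = 0.12). The region chr22:22409298-22409742, which ends 24 bp before the start of the gene, went the other way in fold enrichment, by -0.46 without overlap (limma adjusted p = 0.25), and its pile-ups overlapped at a log2 difference of -0.15.

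IGLV3-9 at the other end of the array went down. Its region chr22:22818859-22819761, with the summit 0 bp from the annotated start, had pile-ups of 47.9, 49.8 and 45.0 after CB-6644 and 82.8, 82.8 and 91.7 after DMSO. The groups did not overlap, at a ratio of 0.554 and a log2 difference of -0.85 ± 0.16 (SE, n = 3 per group, limma adjusted p = 0.010), and 4 of 6 leave-one-out fits called it. Fold enrichment differed by -0.44 (limma adjusted p = 0.39).

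In steps of 200 kb from the start of the IGL cluster at its V end, 10 of 11, 7 of 10, 5 of 6, 4 of 8 and 3 of 9 regions had a positive log2 difference of pile-up, with medians of 0.31, 0.16, 0.29, -0.10 and -0.10. The steps hold few regions and were drawn after the calls were seen, and no trend was tested. Other V segments did not pass, among them IGLV6-57 at 0.07 and IGLV8-61 at -0.02. IGLJ1, next to the constant genes, had pile-ups of 26.4, 55.4 and 45.0 against 59.3, 63.1 and 57.2, which did not overlap, at a log2 difference of -0.57 and a limma adjusted p of 0.22. Its fold enrichment went the other way by 0.15, with overlapping groups (limma adjusted p = 0.86).

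**Figure D4:**
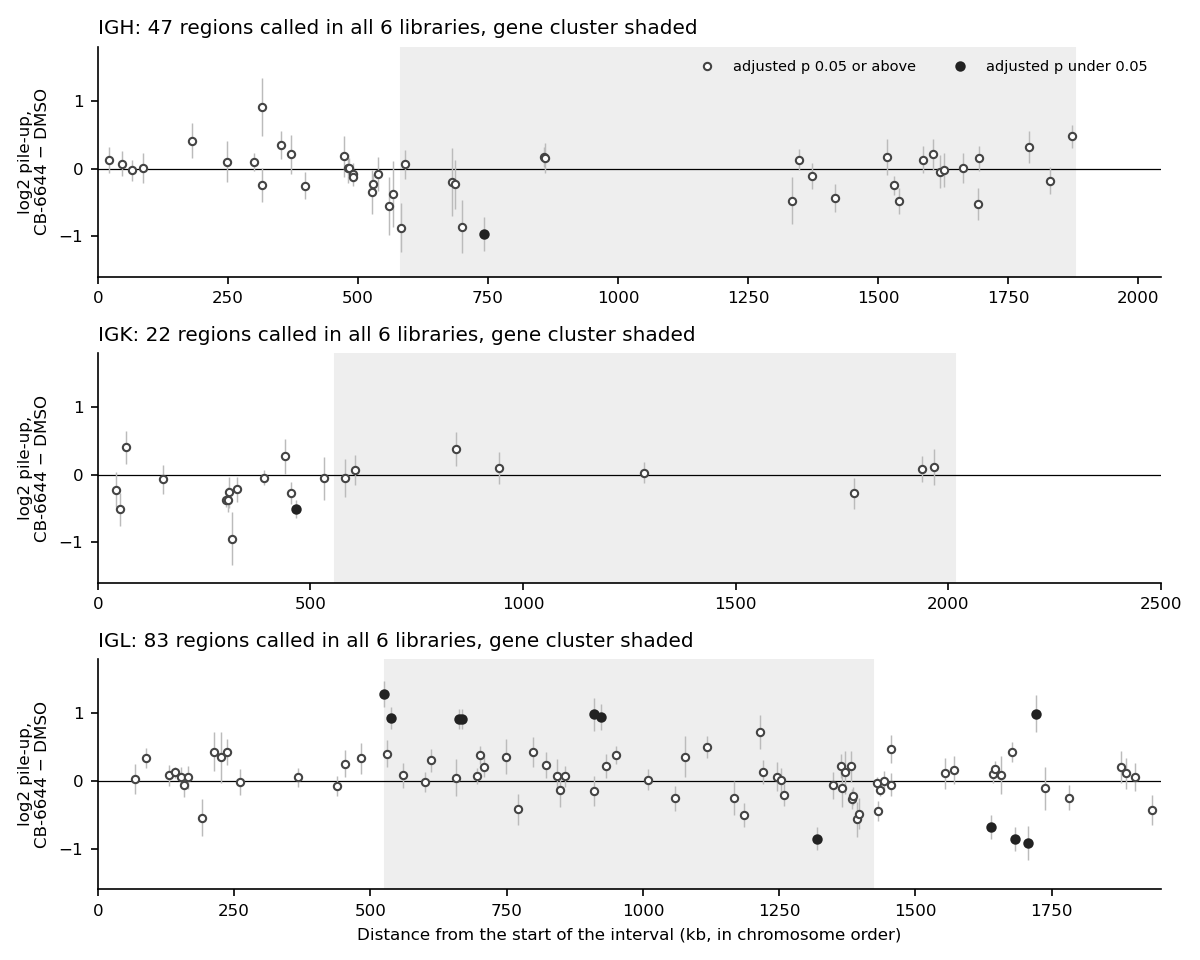
Log2 difference of normalized summit pile-up, CB-6644 minus DMSO (y axis, lines for the SE of the limma fit), of the 152 regions called in all 6 libraries by distance from the start of each interval (x axis, kb), filled where the adjusted p was under 0.05. In IGL 7 filled points are positive, 6 of them in or at the edge of the shaded cluster, and 4 are negative, and IGH and IGK have 1 negative filled point each.

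The only heavy-chain call was at IGHG1, and it was lower. The region chr14:105742566-105743607, with its summit 75 bp upstream of IGHG1, had pile-ups of 39.9, 23.2 and 45.0 after CB-6644 and 61.9, 67.5 and 74.4 after DMSO. All CB-6644 values were below all DMSO values, at a ratio of 0.512 and a log2 difference of -0.97 ± 0.25 (SE, n = 3 per group, limma adjusted p = 0.037), and 2 of 6 leave-one-out fits called it. The background was 2.70, 1.40 and 3.49 against 4.23, 4.92 and 6.17, also without overlap, and fold enrichment differed by -0.28 (limma adjusted p = 0.55).

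Downstream of IGHA2 the pile-ups at chr14:105581585-105582597 were 257, 76.9 and 203 after CB-6644 and 230, 294 and 366 after DMSO. The groups overlapped, and the log2 difference of -0.87 ± 0.36 (SE, n = 3 per group) had a limma adjusted p of 0.17. The fragment class, set by the shortest peak of each list, was also used as a term in the same fit, added after the data were seen. With it the limma adjusted p was 0.00042, and 24.3% of all regions were then called in either direction. Among long-fragment libraries it differed by -0.51 (limma adjusted p = 0.0046) and by -0.35 without CB-6644 replicate 2 (limma adjusted p = 0.18), and fold enrichment differed by -0.02 (limma adjusted p = 0.97). Its counterpart downstream of IGHA1, chr14:105700724-105701352, stood at 80.6, 25.6 and 90.8 against 91.7, 104 and 118, lower in every CB-6644 library, at -0.86 ± 0.39 with a limma adjusted p of 0.22 and of 0.0053 with that term. Among long-fragment libraries this one differed by -0.36 (limma adjusted p = 0.11) and by -0.27 without CB-6644 replicate 2 (limma adjusted p = 0.32), and fold enrichment differed by -0.41 (limma adjusted p = 0.47). By contrast the region on the switch repeats, at 235, 166 and 195 against 191, 154 and 182, differed by 0.17 ± 0.15 (limma adjusted p = 0.56). The other regions called in all 6 libraries downstream of the IGHA genes had positive log2 differences of pile-up without CB-6644 replicate 2. These were 0.54 and 0.21 downstream of IGHA1 (limma adjusted p = 0.096 and 0.72) and 0.29 and 0.06 downstream of IGHA2 (limma adjusted p = 0.52 and 0.89).

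The strongest lambda region differed in neither fit beyond the threshold. Downstream of IGLC7, chr22:22928499-22929178 had pile-ups of 462, 413 and 449 after CB-6644 and 433, 459 and 459 after DMSO. The log2 difference was -0.03 ± 0.08 (SE, n = 3 per group, limma adjusted p = 0.88), with overlapping groups. That of fold enrichment was 0.26, with all CB-6644 values above all DMSO values (limma adjusted p = 0.40). The next one, chr22:22935401-22936169, differed by -0.14 ± 0.09 in pile-up, lower in every CB-6644 library (limma adjusted p = 0.40), and by 0.18 in fold enrichment (limma adjusted p = 0.62).

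**Figure D5:**
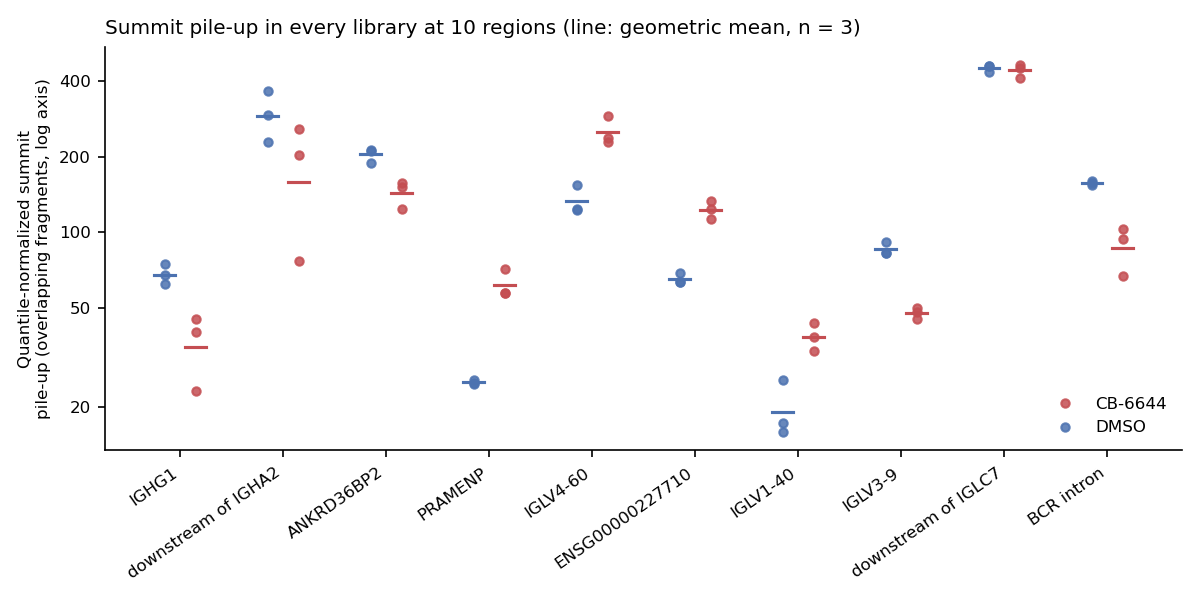
Quantile-normalized summit pile-up (y axis, overlapping fragments, log scale) in every library at 10 regions, with points for the 3 libraries of each group and a line at their geometric mean. CB-6644 points lie above all DMSO points at PRAMENP, IGLV4-60, ENSG00000227710 and IGLV1-40, below them at IGHG1, ANKRD36BP2, IGLV3-9 and the BCR intron, and among them downstream of IGHA2 and IGLC7.

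The flanks gave the remaining calls. Next to IGK, the start of the lncRNA gene ANKRD36BP2 at chr2:88765534-88766318 had pile-ups of 156, 124 and 151 against 213, 211 and 189, without overlap, and a log2 difference of -0.51 ± 0.13 (SE, n = 3 per group, limma adjusted p = 0.037) that 1 of 6 leave-one-out fits called. Introns of BCR gave both directions. The region at chr22:23182518-23182878 fell from 154, 157 and 159 after DMSO to 103, 66.9 and 93.6 after CB-6644 (log2 difference -0.86 ± 0.18, limma adjusted p = 0.012, 4 of 6 leave-one-out fits).

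Further into BCR, chr22:23205751-23206036 was lower (27.8, 39.7 and 21.9 against 64.7, 48.1 and 51.6) and chr22:23219912-23220675 higher (34.2, 66.9 and 44.1 against 28.5, 22.99 and 19.4) after CB-6644. Neither pair of groups overlapped, and 1 of 6 leave-one-out fits called each. At an internal start site of RSPH14, chr22:23137852-23138553 was lower at 52.8, 43.6 and 53.6 against 71.3, 79.4 and 89.7, and 1 of 6 called it too. The strongest flank promoters gave no call by either fit. The log2 differences of pile-up were 0.13 at SDF2L1, -0.04 at EIF2AK3 and RPIA and -0.12 at TEDC1, and those of fold enrichment were 0.24, 0.10 and 0.24. PRAME, a cancer-testis antigen gene inside the lambda cluster, gave no call either, at -0.26 and -0.29.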

How the data were processed

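The data were 6 Omni-ATAC peak lists of MM.1S cells, 3 with CB-6644 (120 nM, 72 h) and 3 with DMSO, grouped by the labels. Alignment to hg38 and peak calling were done by the authors for each library apart, with Bowtie2 2.4.2 and MACS3 3.0 per the submitters' processing notes. The settings of the caller are not given in the sources used here, and peak names point to a mapping-quality filter, duplicate removal and a q threshold. The deposited fold enrichment is the ratio of summit pile-up to local background, each with 1 added, from the authors' caller. The deposited −log10 p-values and −log10 q-values belong to the same summit, and the deposited summit offset (another unit, in bp) gave its position. The study's own edgeR test needs read counts, which are not used here.

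Peaks were merged at an overlap of at least 1 bp with GENCODE release 44 as annotation. Pile-up and background were solved from fold and p under a Poisson model. Regions called in all 6 libraries were tested with limma 3.58.1 (trend, R 4.3.3) on quantile-normalized log2 fold enrichment, with Benjamini-Hochberg adjustment over 42089 regions, after a test on simulated data. Other steps used Python 3.11.15 with pandas 2.3.3, scipy 1.17.1 and numpy 2.4.6, and figures matplotlib 3.10.9. Exact permutation of 3 against 3 libraries cannot go below p = 0.1, so no such p is given. Named were, in each locus, the 3 strongest regions called in all 6 libraries, group-only regions, regions called or with the 3 largest differences each way, regions of the enhancer intervals, those on constant, J and shared V segments, and listed promoters. Regions named only because the pile-up fit called them were chosen after their values were seen. Results for 2 genes of these lists are not reported here. The members and lists were chosen with earlier results of these data known. Alternatives covered the normalization, the recovered pile-up, percentiles, the replicate block, fragment class, q threshold, list length, overlap, motif window and leaving out each library. The pile-up fits with a fragment term, in long-fragment libraries and without each library were added after seeing the data.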

Additional observations from a re-analysis of the deposited data

How the results depend on the processing

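The limma calls depended on the value and the libraries used. Of all regions 311 were called by fold enrichment, against 0 after median centring, 0 with the replicate block, 4252 by recovered pile-up, 3274 by percentile, 4342 with the fragment class as a term, 3504 in the long-fragment libraries and 0 to 1896 without each library (most without CB-6644 replicate 2). In place of 0 members, pile-up called 1 in IGH, 1 in IGK and 11 in IGL, percentiles 2, 2 and 6, the fragment term 2, 2 and 7, and the long-fragment libraries 3, 1 and 3. Leaving out a library gave 0 to 2 in IGL. In the pile-up fit the counts of 1, 1 and 11 (4252 over all regions) became 7, 3 and 21 (10218) with the fragment term, 7, 2 and 19 (9512) in the long-fragment libraries and 0 to 2, 0 to 1 and 3 to 13 (1142 to 6282) without each library, with 3 in IGL without DMSO replicate 2. Whether replicate numbers pair the samples is not given in the labels. Same-numbered deviations from the group means correlated at -0.48, -0.33 and 0.33. The highest correlation of any pair was 0.57, between CB-6644 replicate 2 and DMSO replicate 1, the libraries with the shortest peaks. These correlations therefore cannot show whether same-numbered samples were handled together.

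At 19 of 76 named regions the log2 difference had opposite signs by fold enrichment and by pile-up, and 0 of these 19 were called by either fit. Among them were chr2:88627113-88628291 in EIF2AK3 (0.22 and -0.22), TEDC1 (0.24 and -0.12), the promoter of EIF2AK3 and RPIA (0.10 and -0.04), IGLJ1 (0.15 and -0.57), IGLV8-61 (0.05 and -0.02) and both regions named downstream of IGLC7 (0.26 and -0.03, 0.18 and -0.14). Log2 differences of fold enrichment changed sign elsewhere at chr2:88615806-88616297 in EIF2AK3 (0.019 in the long-fragment libraries, -0.73 to 0.029 without each library), chr14:105566361-105567087 downstream of IGHA2 (-0.76 to 0.041) and IGKV3-20 (-0.10 to 0.31). Peak counts, CB-6644 minus DMSO, turned from -14, -10.3 and -3.67 in IGH, IGK and IGL to 4.67, 0.333 and 10.3 at equal list length, and ran from -13 to 4.5 in IGL without each library.

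DMSO-only regions (0 in IGH, 4 in IGK, 4 in IGL) became 0 in IGK and 0 in IGL at equal list length, 0 and 1 among the 20000 strongest peaks, and 2 and 1 when peaks covered at least 50% of a region. They were 2 in IGH in the long-fragment libraries, 8 in IGH and 7 in IGL with 2 of 3 libraries, and 1 to 6 in IGH and 4 to 7 in IGL without each library. The DMSO-only share over all regions was 9.21% in the long-fragment libraries and 9.05% with 2 of 3 libraries. The CB-6644-only share was 1.99% and 1.78%. CB-6644-only regions (1 in IGH, 0 in IGK, 1 in IGL) became 2 in IGL at a −log10 q of at least 5, 4 at equal list length, 3 in the long-fragment libraries, 2, 2 and 5 with 2 of 3 libraries, and 0 in IGH and 2 in IGL among the 20000 strongest, with ranges of 1 to 2 in IGH, 0 to 1 in IGK and 1 to 3 in IGL without each library.

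Over all called regions median relative background was 2.45 in IGH, 1.01 in IGK and 3.76 in IGL and relative pile-up 0.972, 0.539 and 1.30, against 3.06, 2.02 and 4.40 and 1.60, 1.08 and 1.93 at regions called in all 6. Within 50 bp of summits the E-box stood at 30.3% of the member regions called in all 6, against 19.2% of all such regions. EICE stood at 2.63% against 4.06%, MAF at 1.32% against 3.27% and NF-kB at 2.63% against 4.12%. ATF4-CEBP stood at 0.658% against 1.18%, which turned its direction from that within 100 bp. Within 15 kb there were 4, 2 and 0 regions downstream of IGHA1, IGHA2 and IGKC. The cause of these changes was not tested. Depth is known only through recovered background, and its part in the calling of weak regions near the caller's threshold was not tested.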
